A study of Oryza sativa Indica Group with 12 samples.

Results

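The root response of the rice cultivar EPAGRI 108 to 3 days of excess Fe was taken from 6 of the 12 GeneChip Rice Genome Arrays of the series, chosen by their labels alone. The excess Fe group held 3 arrays of plants given 500 mg/L Fe, and the control group held 3 arrays of plants given 6.5 mg/L Fe. Both solutions carried Fe as FeSO4, and the methods state that the control solution was brought to equal sulfur with Na2SO4. EPAGRI 108 is an indica cultivar grown in southern Brazil and classed as tolerant to Fe toxicity. The other 6 arrays came from BR-IRGA 409, an indica cultivar of the same region classed as susceptible, with 3 excess Fe and 3 control arrays, and serve here for comparison and, in the common fit, for part of the error estimate. The labels call the arrays of a group biological replicates and do not say whether roots of several plants were pooled. All values are log2 signals per probe set, the set of short probes that reads 1 transcript, and a fold is the ratio of excess Fe to control. Directions follow the array labels. The gene tables that accompany the study carry the EPAGRI 108 response with the opposite sign, so genes that stand higher in excess Fe by the labels are listed there as lowered. Whether the tables or the labels are exchanged is not known, and exchanged labels would turn every EPAGRI 108 direction given here. By the labels, the probe sets called higher and lower in BR-IRGA 409 had median log2 changes of 1.27 and -0.95 in EPAGRI 108.

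Rice roots take up Fe as Fe2+ through OsIRT1 and as a complex of Fe3+ with phytosiderophores, small chelators that are made from nicotianamine, exported by TOM1 and brought back by OsYSL15. Genes of this machinery are known to be high when Fe is scarce and low when it is ample. Surplus Fe is held in ferritin, a protein shell of the plastid, or moved into the vacuole by transporters of the VIT family. Free Fe2+ generates hydroxyl radicals, and roots under such stress are known to express peroxidases, pathogenesis-related (PR) proteins and enzymes of phytoalexin synthesis, which make antimicrobial compounds.

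Both EPAGRI 108 arrays numbered 1, 1 from each treatment, lay between the treatments on the probe sets called in BR-IRGA 409. This was measured on the 627 probe sets called higher in BR-IRGA 409 (1.10% of those tested) in its own contrast, where the EPAGRI 108 arrays enter only through the pooled spread. Their mean signal was 7.83, 8.22 and 8.31 on excess Fe arrays 1 to 3, against 7.49, 6.34 and 6.31 on control arrays 1 to 3. Over the 143 probe sets called lower in BR-IRGA 409 (0.250%), the means were 7.52, 6.74 and 6.56 in excess Fe and 7.78, 8.03 and 7.95 in control. The treatments did not overlap in either mean. Control array 1 lay farthest from its own group in the first set, and excess Fe array 1 in the second. Principal components, the axes of largest spread, were taken over all probe sets of the 6 EPAGRI 108 arrays. On the first (46.7% of the variance) excess Fe arrays 1 to 3 scored 34.5, 24.1 and 32.2. Control array 1 scored 25.3, among them, and control arrays 2 and 3 scored -59.1 and -57.0. On the second (33.0%) the arrays numbered 1 scored 33.4 and 50.1, and the others -44.2 to 3.7. The 3′ minus 5′ difference of the actin control probe sets, a measure of RNA integrity or labelling, was 3.75 to 3.89 on the arrays numbered 1 of all 4 groups. On the other 8 arrays it was 2.18 to 2.49 in excess Fe and 1.85 to 2.08 in control, so it also differed by treatment there. Its part in the results was not tested. Below, the 4-array change is the log2 change in EPAGRI 108 from the fit without both of its arrays numbered 1, and it is given as a bound (at least) where a group was not above background there. Background is the top level of the array's own control probe sets for genes that rice lacks.

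**Figure D1:**
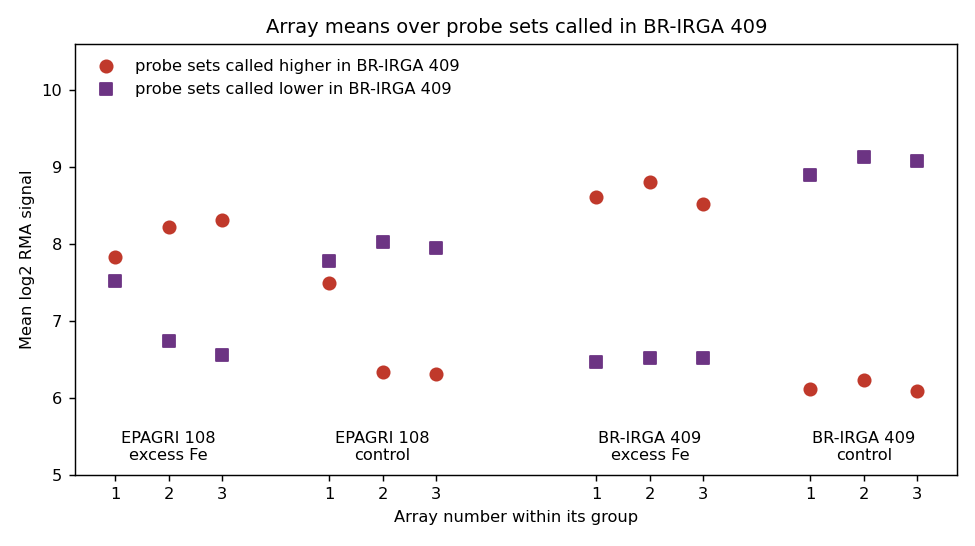
Mean log2 signal of each of the 12 arrays over the probe sets called higher (circles) and lower (squares) in BR-IRGA 409, by cultivar and treatment with the array number on the x axis. In EPAGRI 108 the excess Fe and control arrays numbered 1 read 7.83 and 7.49 over the first set, closer together than arrays 2 and 3, which read 8.22 and 8.31 in excess Fe and 6.34 and 6.31 in control.

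In EPAGRI 108 roots 162 probe sets were called higher in excess Fe and 13 lower, where called means a Benjamini-Hochberg adjusted p under 0.05 in limma and a change of at least 3-fold. These are 0.283% and 0.0227% of the 57258 probe sets tested. The adjusted p of the called probe sets lay between 0.0355 and 0.0498, so all stood close to the threshold, and 5911 probe sets had an unadjusted p under 0.05. All 162 and all 13 had no overlap between the 3 excess Fe and 3 control arrays, against 6.34% of all probe sets with every excess Fe array above every control array and 7.07% with every one below. They were called on these same arrays by their difference, so the lack of overlap is no separate evidence. With the replicate number as a block within each cultivar no probe set was called in either direction (smallest adjusted p 0.0712), and with the number as a block over all 4 groups 186 were called higher and 17 lower. Without both arrays numbered 1 the counts were 520 higher (0.908%) and 78 lower (0.136%), and all 175 probe sets were called again in the same direction. With the 6 EPAGRI 108 arrays alone no probe set was called (smallest adjusted p 0.234), so the calls rest also on the spread of the BR-IRGA 409 arrays. Leaving out excess Fe array 1 alone gave 240 higher and 55 lower, leaving out control array 1 alone gave 457 higher and 36 lower, and leaving out any 1 of the other 10 arrays gave no call. In a bulk root sample, fewer cells of a type and less RNA per cell cannot be told apart.

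The probe sets called higher changed by a median log2 of 2.04 (1.59 to 4.51), or 2.77 without the arrays numbered 1, where the median over all probe sets was -0.01. The annotation gives 1 gene to 108 of the 162, and for 7 of the 162 no control array was above background, so that their change is a bound. The same probe sets had a median log2 change of 2.70 in BR-IRGA 409, and 136 of the 162 were also called higher there and 0 lower. The 13 called lower had a median of -1.75 in EPAGRI 108 and -2.64 in BR-IRGA 409, with 12 of them also called lower in BR-IRGA 409. The test of the difference between the cultivars' responses called 80 probe sets in all (0.140% of those tested). Among them were 4 of the 162, all with the smaller response in EPAGRI 108, and none of the 13.

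**Figure D2:**
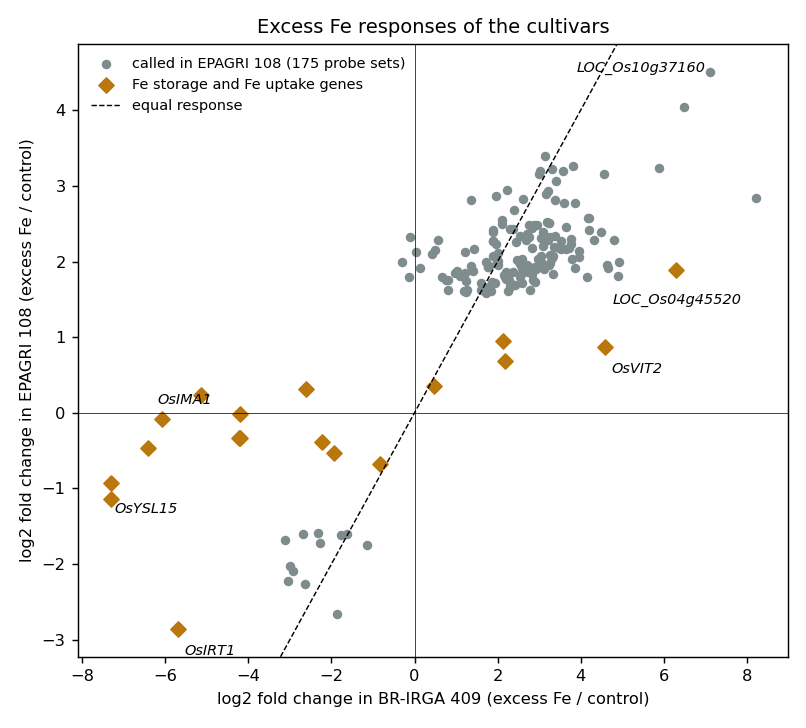
Log2 fold change of excess Fe over control in EPAGRI 108 (y axis) against BR-IRGA 409 (x axis) for the 175 probe sets called in EPAGRI 108 (circles) and for the genes of Fe storage and Fe uptake (diamonds), with a dashed line at equal responses. The called probe sets share their sign in both cultivars apart from a few near 0 in BR-IRGA 409, while most of the Fe genes lie near 0 in EPAGRI 108 and far from 0 in BR-IRGA 409.

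The gene with the largest rise was LOC_Os10g37160, a cytochrome P450 of the enzymes that oxidise hormones, lipids and defence compounds. Its signal was 10.80, 12.26 and 11.48 on the excess Fe arrays, against 9.98, 5.93 and 5.09 on the control arrays. Control array 1 stood far above the other control arrays and still below every excess Fe array. The log2 fold change between the 3 and 3 arrays was 4.51 ± 0.95 (pooled SE, adjusted p = 0.0491), and the 4-array change was 6.36. Here and below the SE rests on the spread pooled over all 4 groups of both cultivars. For this gene the standard deviation was 0.73 in excess Fe and 2.62 in control EPAGRI 108, against 0.9 and 0.23 in BR-IRGA 409. The pooled SE is therefore not a measure of the EPAGRI 108 spread alone. LOC_Os02g37380, an expressed protein of no stated role, followed with 10.56, 11.57 and 12.59 in excess Fe against 9.83, 6.17 and 6.56 in control (4.05 ± 0.76, adjusted p = 0.0392, 4-array change 5.71). LOC_Os01g13610, annotated as an isoflavone reductase homolog, a family of NADPH-dependent reductases, read 9.59, 10.69 and 10.32 in excess Fe and 8.74, 5.95 and 5.72 in control (3.39 ± 0.72, adjusted p = 0.0496, 4-array change 4.67).

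Several of the other large rises were of stress and signalling genes. OsASR3, an abscisic acid, stress and ripening protein, read 6.92, 7.86 and 8.74 in excess Fe against 6.41, 3.98 and 3.39 in control, a log2 change of 3.24 ± 0.63 (adjusted p = 0.0401, 4-array change at least 3.48). Its neighbour on chromosome 1, OsASR4, changed by 2.29 (4-array change 3.24). PSK4, the precursor of a phytosulfokine peptide hormone, had 8.73, 9.68 and 9.81 in excess Fe and 7.95, 5.55 and 5.08 in control (3.22 ± 0.57, adjusted p = 0.0392, 4-array change 4.43). It was the 1 called gene among 3 phytosulfokine precursors measured. The reticuline oxidase homolog LOC_Os06g35700 changed by 3.20, the glycine-rich wall protein LOC_Os10g31470 by 3.20 and 2.82 on its probe sets, the threonine aldolase homolog LOC_Os04g43650 by 2.95 and the senescence-associated LOC_Os03g63620 by 2.93. A pair of omega-6 fatty acid desaturases, enzymes that put double bonds into membrane lipids, lie next but 1 to each other on chromosome 7 and changed by 2.89 (LOC_Os07g23430) and 2.83 (LOC_Os07g23410). A probe set with no gene name in the annotation changed by 3.16 (adjusted p = 0.0459). From the reticuline oxidase homolog on, the 4-array changes lay between 3.81 and 4.45, apart from LOC_Os04g43650 with at least 2.87.

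Genes of diterpenoid phytoalexins had more called members than any other list taken by gene symbol. Lists and members were chosen with earlier results of these data known, which limits this ranking. Of 17 genes measured, 5 were called higher and 0 lower, and 11 were called higher without the arrays numbered 1. Over all probe sets the shares called higher were 0.283% and 0.908% without the EPAGRI 108 arrays numbered 1. The median log2 change over the 17 was 2.42, or 3.28 without those arrays, against 1.88 in BR-IRGA 409, where 8 were called. The pathway cyclises geranylgeranyl diphosphate by a CPS and then a KSL enzyme, and P450 enzymes oxidise the product to momilactones, phytocassanes and oryzalexins.

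The called members spanned the steps of the pathway. OsCPS4, the cyclase that leads to momilactones, read 9.07, 9.74 and 9.82 in excess Fe against 8.33, 5.88 and 5.25 in control (3.06 ± 0.62, adjusted p = 0.0439, 4-array change 4.21). CYP99A3, a P450 of the momilactone branch and its neighbour on chromosome 4, read 11.58, 12.29 and 12.27 in excess Fe against 10.80, 8.32 and 7.53 in control (3.16 ± 0.61, adjusted p = 0.0393, 4-array change 4.35). In both, control array 1 lay above the other control arrays and below all excess Fe arrays. OsKSL7, the cyclase of the phytocassane branch, read 7.81, 8.20 and 8.06 in excess Fe and 7.11, 4.84 and 4.85 in control (2.42 ± 0.49, adjusted p = 0.0433, 4-array change 3.28). CYP71Z7, a P450 encoded near OsKSL7 on chromosome 2, had 10.23, 10.91 and 11.28 in excess Fe and 9.43, 7.57 and 6.81 in control (2.87 ± 0.57, adjusted p = 0.0426, 4-array change 3.90). The remaining called member was OsKO5, an ent-kaurene oxidase homolog of chromosome 6, with 8.14, 8.98 and 9.30 in excess Fe and 7.69, 6.25 and 5.68 in control (2.27 ± 0.43, adjusted p = 0.0392, 4-array change 3.17).

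Further members had large differences that did not pass the test. OsKO4 differed by 3.67 (adjusted p = 0.0606), OsKSL4, the cyclase that follows OsCPS4, by 3.38 (0.0631), CYP99A2 by 3.25 (0.0509), OsCPS2 by 2.88 (0.17) and the momilactone A synthase OsMAS by 2.43 (0.0568). Their 4-array changes were at least 3.85 for OsKO4, at least 3.33 for OsKSL4, 4.50 for CYP99A2, 3.95 for OsCPS2 and 3.28 for OsMAS, each called. Their excess Fe and control arrays did not overlap, as held for 13 of the 17 genes. Over all probe sets, 6.34% had every excess Fe array above every control array. At the other end, CYP76M6 differed by 0.12, and OsKSL5, OsKSL10 and CYP76M7 were not above background in either treatment. OsCPS4, CYP99A3, OsMAS, OsKSL4 and CYP99A2 hold places 347, 348, 351, 354 and 355 in the gene order of chromosome 4. DXPS, which opens the plastid pathway that supplies the precursor of these compounds, changed by 2.23 (adjusted p = 0.0392) and was picked after its value was seen.

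**Figure D3:**
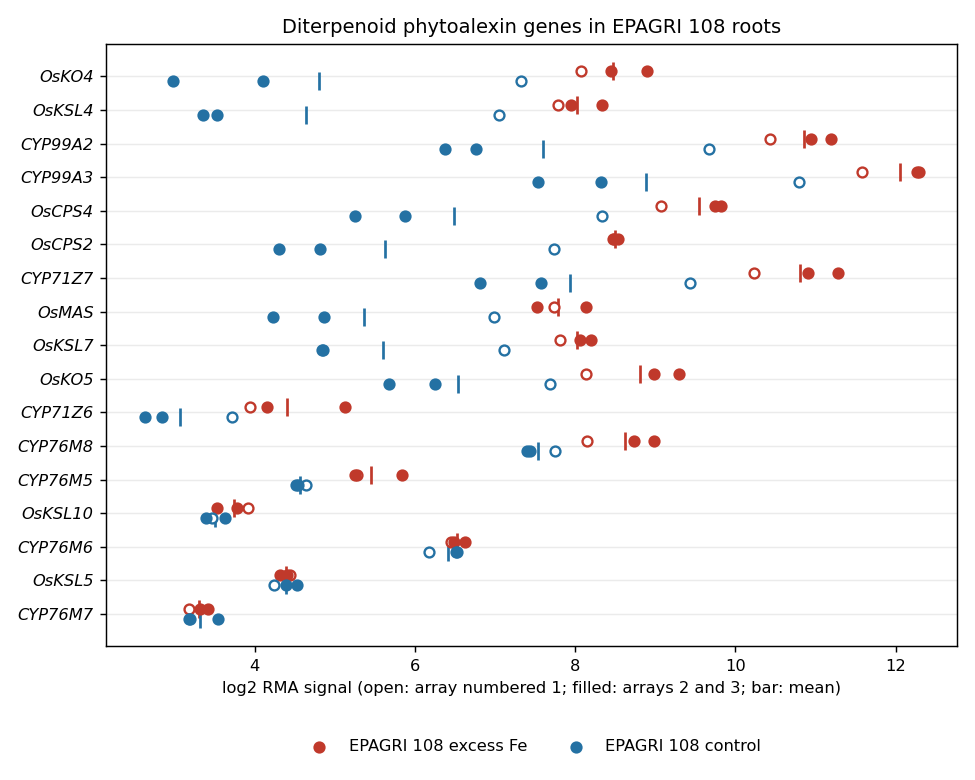
Log2 signal of the 17 diterpenoid phytoalexin genes on the 6 EPAGRI 108 arrays, ordered by log2 fold change, with excess Fe above control in each row, open symbols for the arrays numbered 1 and bars for group means. For 13 genes every excess Fe symbol lies to the right of every control symbol, and the open control symbol lies between the other control arrays and the excess Fe arrays in the rows of larger change.

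Several groups of defence enzymes and proteins had members called higher. For the groups in this paragraph, members were taken from the study's tables of BR-IRGA 409, so these genes were chosen on other arrays of the same study. Of all 627 probe sets called higher in BR-IRGA 409, 136 were also called higher in EPAGRI 108, and 360 without the arrays numbered 1. The counts below are to be read beside these. Over all probe sets the shares called higher were 0.283%, and 0.908% without those arrays. All 3 thaumatin and P21 proteins, a PR family that acts on fungal membranes, were called higher, and LOC_Os03g46070 read 9.50, 10.12 and 10.44 in excess Fe against 8.90, 6.47 and 6.98 in control (2.57 ± 0.51, adjusted p = 0.0419, 4-array change 3.56). Of 9 chitinases and xylanase inhibitors, which degrade fungal walls or block microbial wall-degrading enzymes, 5 were called higher and 0 lower, and 8 higher without the arrays numbered 1. The acidic endochitinase LOC_Os01g47070 had 11.97, 12.80 and 13.02 in excess Fe and 11.49, 9.37 and 9.56 in control (2.46 ± 0.44, adjusted p = 0.0392, 4-array change 3.45). Of 17 cytochromes P450, 7 were called higher and 0 lower, and 12 without the arrays numbered 1, beside 16 of 17 in BR-IRGA 409. A PR1 protein, LOC_Os07g03730, changed by 2.43 ± 0.39 (adjusted p = 0.0355, 4-array change 3.26). Of 11 receptor-like kinases 2 were called higher, and 10 without the arrays numbered 1. The 3 PR10 proteins gave no call and pointed both ways, with LOC_Os12g36830 at 2.69 (adjusted p = 0.0509), LOC_Os12g36850 at 1.99 (0.0602) and LOC_Os12g36840 at -0.78 (0.248), and 2 were called higher without the arrays numbered 1. Among chitinases taken by gene symbol, whatever their response, 3 of 12 were called higher (Cht1, Cht11 and OsChia2a, by 1.97, 1.92 and 1.80) and 0 lower, and 5 higher without the arrays numbered 1. Of 4 beta-1,3-glucanases taken by symbol 0 were called with or without those arrays, with log2 changes of -0.62 to 0.20. Glucan endo-1,3-beta-glucosidases without a symbol were called higher at LOC_Os01g71340 (2.18, adjusted p = 0.0392), LOC_Os01g71810 (1.82, 0.0457) and LOC_Os01g71820 (1.75, 0.0478). They were picked after their values were seen.

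Class III peroxidases, wall enzymes that use hydrogen peroxide and can cross-link lignin, moved in both directions. Of 14 from the BR-IRGA 409 tables, 6 were called higher and 0 lower, and 6 higher and 4 lower without the arrays numbered 1. Over all probe sets 0.283% were called higher and 0.0227% lower, and 0.908% and 0.136% without those arrays. OsPrx46 read 11.47, 11.91 and 11.78 in excess Fe against 10.92, 8.61 and 8.11 in control (2.51 ± 0.51, adjusted p = 0.0454, 4-array change 3.49). OsPrx135 changed by 2.08, OsPrx110 by 1.93, OsPrx57 by 1.92 and LOC_Os11g02100 by 2.42. On the other side, a probe set of OsPrx20 was called lower, with 8.85, 7.27 and 7.0 in excess Fe and 9.19, 10.26 and 10.45 in control (-2.26 ± 0.45, adjusted p = 0.042, 4-array change -3.22). The list took OsPrx20 at another probe set, which the annotation places on chromosome 2 and which differed by -2.34 without passing the test (adjusted p = 0.0792). OsPrx41, OsPrx78 and OsPrx107 differed by -2.28, -1.74 and -1.29, also without a call.

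The 4 genes listed as dirigent proteins, which steer the coupling of monolignols, gave large differences downward and no call. LOC_Os10g18870 read 8.99, 3.66 and 3.24 in excess Fe against 9.64, 10.04 and 9.48 in control, so that array 1 of excess Fe stood near the control arrays. The log2 difference was -4.42 ± 1.10 (adjusted p = 0.0811), and the 4-array change was -4.84 or larger in size (adjusted p = 6.72e-06), since excess Fe arrays 2 and 3 were not above background. LOC_Os10g18820 differed by -4.03 (adjusted p = 0.102), LOC_Os11g07770 by -2.18 and LOC_Os11g07740 by -1.36. All 4 were called lower in BR-IRGA 409, which is no separate test because they were chosen from the tables of that cultivar. In EPAGRI 108 all 4 were called lower without the arrays numbered 1. Of 16 genes of phenylpropanoid and monolignol synthesis taken by symbol, 0 were called in either direction with or without those arrays. Of 9 laccases, 22 casparian strip membrane proteins, 29 expansins and 3 secondary-wall cellulose synthases, 0 were called, and without the arrays numbered 1 only the laccase LAC24 was, upward. The phenylalanine ammonia-lyase LOC_Os04g43800, the entry enzyme of phenylpropanoids, has no symbol in the annotation, was picked after its value was seen, and changed by 2.39 (adjusted p = 0.0392). LOC_Os12g07580, annotated as a disease resistance response protein, was outside the dirigent list and was also picked after its value was seen. It was called higher by 1.80 (adjusted p = 0.0355, 4-array change 2.41), and by 2.54 in BR-IRGA 409. Whether it belongs with the dirigent proteins was not tested.

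Some transcription factors of the WRKY family, many of which act in defence, were called higher. Of 5 members taken from the BR-IRGA 409 tables, 3 were called, and 5 without the arrays numbered 1. The shares called higher over all probe sets were 0.283%, and 0.908% without those arrays. OsWRKY77 read 5.89, 7.09 and 7.49 in excess Fe against 5.53, 3.54 and 3.87 in control (2.51 ± 0.49, adjusted p = 0.0401, 4-array change at least 2.47). OsWRKY11 changed by 1.88 and OsWRKY19 by 1.85. OsWRKY62, known in rice as a negative regulator of defence, changed by 1.94 and was the 1 called gene of 6 WRKY genes taken by symbol, 2 without the arrays numbered 1. The log2 changes of these 6 ran from -0.10 to 2.17. No JAZ or TIFY repressor (17 genes) and no jasmonate synthesis gene (17 genes) was called, and 3 of each were called higher without the arrays numbered 1. NAC factors gave 0 of 8 calls, and 3 of 8 without those arrays.

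Transporters gave few calls. Of 22 HAK potassium transporters, each taken at its brightest probe set, 2 were called higher and 0 lower, with a median of 0.05, and 2 higher and 1 lower without the arrays numbered 1. Among all probe sets 0.283% were called higher and 0.0227% lower, and 0.908% and 0.136% without those arrays. OsHAK16 read 8.70, 9.21 and 9.08 in excess Fe against 8.08, 6.06 and 6.16 in control (2.23 ± 0.44, adjusted p = 0.0409, 4-array change 3.03), and OsHAK17 read 8.14, 8.98 and 8.11 against 7.38, 5.66 and 5.42 (2.26 ± 0.45, adjusted p = 0.0419, 4-array change 3.0). OsHAK5, a high-affinity carrier known from low potassium, has probe sets that disagree. One read 8.42, 8.95 and 9.22 in excess Fe against 7.65, 4.63 and 4.53 in control (3.26 ± 0.63, adjusted p = 0.0401, 4-array change at least 4.26), and the brighter one read 13.03, 12.96 and 13.06 against 13.12, 12.88 and 12.81 (0.08, adjusted p = 0.954). OsHAK4 lay lower in excess Fe, by -1.48, under the 3-fold limit. Of 9 PDR-type ABC transporters with a symbol 0 were called, and 2 without the arrays numbered 1, while LOC_Os07g33780, a PDR-like transporter without a symbol, was called at 2.44.

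The 13 probe sets called lower were led by OsIRT1, the Fe2+ uptake transporter. It read 9.24, 6.46 and 5.99 in excess Fe against 9.93, 10.26 and 10.09 in control. Excess Fe array 1 lay nearer to the control arrays than to its own group. The log2 change was -2.86 ± 0.60 (adjusted p = 0.0479, 4-array change -3.95), beside -5.70 in BR-IRGA 409. The difference between the cultivars was 2.84 and did not pass the test (adjusted p = 0.552). The sulfate transporter LOC_Os03g09980 fell to 10.01, 8.07 and 8.01 in excess Fe, against 10.58, 11.09 and 11.10 in control (-2.23 ± 0.41, adjusted p = 0.0392, 4-array change -3.06). Another sulfate transporter, LOC_Os01g52130, moved upward by 1.91 and was picked after its value was seen. LOC_Os06g48180, annotated as OsXTH10, OsXTH11, OsXTH12 or OsXTH18, enzymes that cut and rejoin xyloglucan in the wall, read 8.87, 7.48 and 7.32 in excess Fe and 9.45, 10.40 and 9.91 in control (-2.03 ± 0.35, adjusted p = 0.0392, 4-array change -2.76). The others were LOC_Os02g37260 (-2.66), LOC_Os05g28770 (-2.09), the beta-glucosidase Os9bglu30 (-1.75), OsCIPK31, a kinase of the family that calcium sensors switch on (-1.72), the RADIALIS-like LOC_Os05g50340 (-1.68), the histidine decarboxylase homolog LOC_Os10g01640 (-1.61), an actin, LOC_Os05g01600 (-1.60), the copper amine oxidase LOC_Os04g40040 (-1.59) and an unnamed probe set (-1.62). Os9bglu30 was the 1 of the 13 not called lower in BR-IRGA 409, with a log2 change of -1.15 there.

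Genes of Fe storage and uptake showed where EPAGRI 108 differed from BR-IRGA 409. Of 14 uptake genes, OsIRT1 was the 1 called in EPAGRI 108, with a list median of -0.33. Without the arrays numbered 1 the median was -0.43, and OsNAS1 was called lower too (4-array change -1.68). In BR-IRGA 409, 12 of the 14 were called lower and 1 higher, with a median of -4.22. The difference between the responses was called for 10 of the 14, whereas over all probe sets 31 were called with the EPAGRI 108 response on the higher side and 49 on the lower side. In excess Fe the cultivars read alike over the 18 storage and uptake genes, with a median absolute difference of 0.15 and none 3-fold apart. In control they did not, with a median absolute difference of 3.51 and 12 genes 3-fold apart. Over all probe sets these medians were 0.11 in excess Fe and 0.10 in control. The EPAGRI 108 control mean was 3-fold or more below the BR-IRGA 409 control mean for 10 of 14 uptake genes and above it for 2 of 4 storage genes. Whether probes of this array bind the alleles of the cultivars unequally was not tested.

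OsYSL15, the phytosiderophore importer, showed the pattern most plainly. It read 6.43, 5.01 and 5.16 in excess Fe and 6.57, 6.48 and 6.35 in control EPAGRI 108, against 5.55, 5.59 and 5.55 in excess Fe and 12.99, 12.78 and 12.89 in control BR-IRGA 409. Only the BR-IRGA 409 control arrays were high. Its difference between the responses was 6.39 ± 0.39 (adjusted p = 8.85e-06). OsNAS1, which makes nicotianamine, had 7.19, 5.16 and 4.92 in excess Fe and 7.24, 6.68 and 6.76 in control EPAGRI 108, against 5.03, 5.54 and 5.80 in excess Fe and 12.55, 12.85 and 12.88 in control BR-IRGA 409. Both EPAGRI 108 arrays numbered 1 were high within their groups, and the difference was 6.16 ± 0.64 (adjusted p = 0.00101). OsNAAT1, the next enzyme of phytosiderophore synthesis, read 5.96, 5.64 and 6.38 in excess Fe and 6.08, 5.53 and 5.66 in control EPAGRI 108, against 6.45, 5.86 and 5.94 in excess Fe and 11.03, 11.30 and 11.35 in control BR-IRGA 409 (5.38 ± 0.30, adjusted p = 3.8e-06). OsNAS2, OsNRAMP1 (a metal transporter), OsYSL2 (a nicotianamine-metal transporter) and the bHLH repressor OsIRO3 had differences of 5.95, 3.88, 3.90 and 1.85. For OsIMA1, a peptide known to promote Fe uptake genes, the exporter OsZIFL4 (TOM1) and the mitochondrial OsMIR, only the BR-IRGA 409 control arrays were above background. OsIRT2, the near relative of OsIRT1, differed by 0.36 in EPAGRI 108 and 0.46 in BR-IRGA 409.

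In the storage group the control arrays of EPAGRI 108 stood 3-fold or more above those of BR-IRGA 409 for 2 of 4 genes, LOC_Os04g45520 and OsVIT2. Of these 4, 1 was called higher with and without the arrays numbered 1. LOC_Os04g45520, a VIT-like membrane protein, read 12.71, 13.23 and 13.40 in excess Fe and 12.15, 11.01 and 10.51 in control EPAGRI 108, against 13.13, 13.23 and 13.27 in excess Fe and 6.43, 6.85 and 7.41 in control BR-IRGA 409. Its rise of 1.89 ± 0.35 in EPAGRI 108 was called (adjusted p = 0.0392, 4-array change 2.55), and it was smaller than in BR-IRGA 409 by 4.42 (adjusted p = 0.00192). The neighbouring LOC_Os04g45510, a gene of no stated role outside the list, had 10.94, 11.35 and 11.70 in excess Fe and 10.20, 7.69 and 7.59 in control EPAGRI 108, against 11.20, 11.17 and 11.14 in excess Fe and 3.21, 3.0 and 2.61 in control BR-IRGA 409. It rose by 2.84 in EPAGRI 108 (4-array change 3.89). Its BR-IRGA 409 control arrays were not above background, so the difference between the responses was -3.44 or larger in size (adjusted p = 0.00936). OsVIT2, which loads Fe into the vacuole, read 12.82, 13.03 and 13.27 in excess Fe and 12.57, 12.09 and 11.85 in control EPAGRI 108, against 13.56, 13.27 and 13.39 in excess Fe and 9.37, 8.62 and 8.48 in control BR-IRGA 409. Its EPAGRI 108 change of 0.87 did not pass the test (adjusted p = 0.107), and the difference was -3.72 (adjusted p = 0.000305). A second, dimmer probe set of OsVIT2 had a difference of -4.25 (adjusted p = 0.000362). The ferritin probe set, which near-identical OsFER1 and OsFER2 may share, changed by 0.95 ± 0.17 in EPAGRI 108, past the p threshold (adjusted p = 0.0392) and under 3-fold, beside 2.12 in BR-IRGA 409 (difference -1.17, adjusted p = 0.127). OsVIT1 differed by -0.68 in EPAGRI 108 and -0.83 in BR-IRGA 409.

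**Figure D4:**
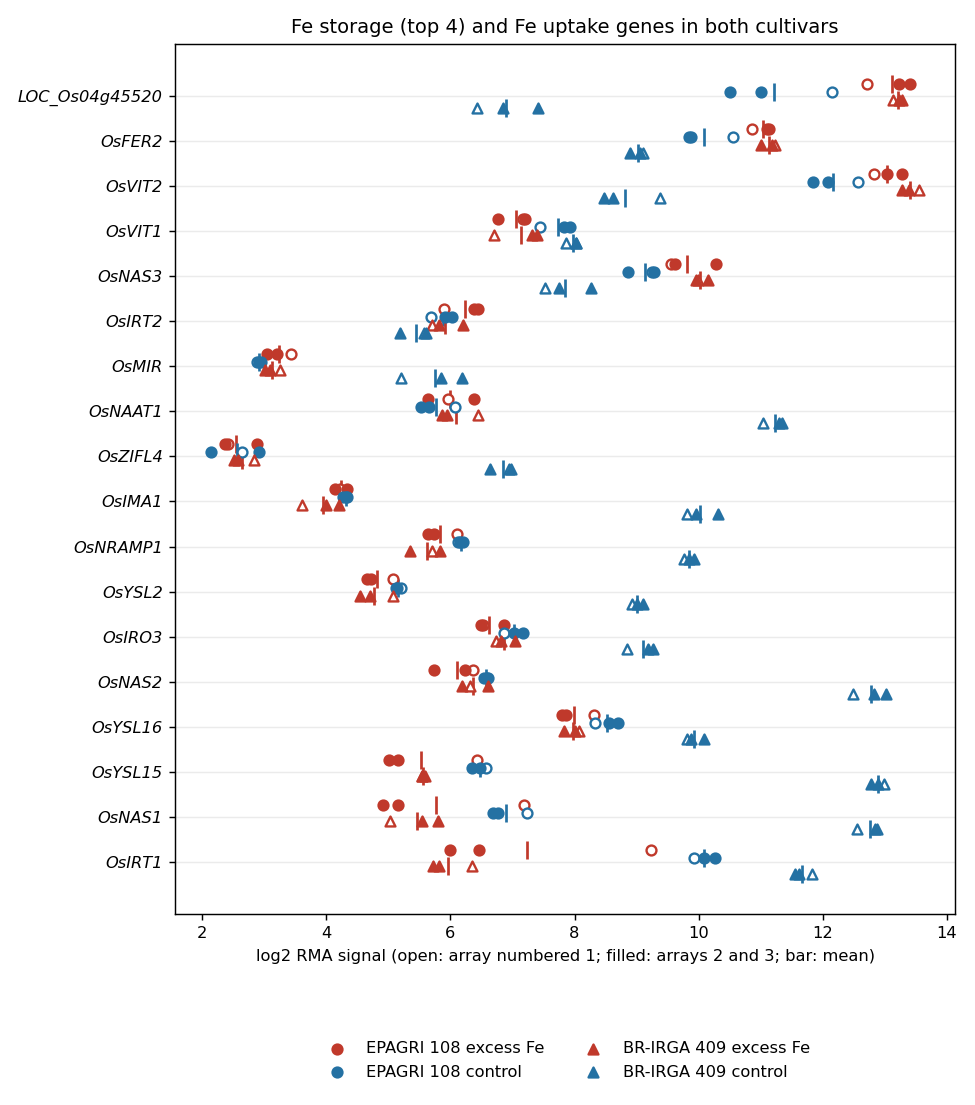
Log2 signal of 4 Fe storage genes (top) and 14 Fe uptake genes on all 12 arrays, EPAGRI 108 as circles and BR-IRGA 409 as triangles, excess Fe in red and control in blue, open symbols for the arrays numbered 1 and bars for group means. For most uptake genes the blue triangles stand alone at the right, while both EPAGRI 108 groups and the BR-IRGA 409 excess Fe group lie together.

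Outside Fe homeostasis, stress genes were among those with a called difference. Of the 49 with the EPAGRI 108 response on the lower side, 44 were called higher in BR-IRGA 409, and 38 changed by less than 2-fold in EPAGRI 108. Of the 31 on the higher side, 29 were called lower in BR-IRGA 409. The small heat shock protein OsHsp18.1 read 6.24, 6.42 and 6.35 in excess Fe and 6.02, 5.99 and 5.76 in control EPAGRI 108, against 10.72, 11.55 and 10.59 in excess Fe and 6.19, 6.00 and 6.34 in control BR-IRGA 409. Here the BR-IRGA 409 excess Fe arrays were the high ones, with a difference of -4.36 ± 0.29 (adjusted p = 2.04e-05). Another small heat shock protein, OsHsp17.4, rose in EPAGRI 108 by 2.04, the 1 called of 19. The glucosyltransferase LOC_Os01g41430 had a difference of -3.57 or larger in size (adjusted p = 0.000115), as its BR-IRGA 409 control arrays were not above background, and the PR10 protein LOC_Os12g36840 differed by 3.30 (adjusted p = 0.00207). The HKT-type cation transporter LOC_Os06g48810 read 6.29, 6.19 and 6.35 in excess Fe and 6.40, 5.95 and 6.35 in control EPAGRI 108, against 8.04, 8.61 and 8.5 in excess Fe and 5.89, 5.95 and 5.63 in control BR-IRGA 409 (-2.52, adjusted p = 0.000416). No probe set called in EPAGRI 108 had a response called larger there than in BR-IRGA 409. The amidase LOC_Os04g10530, picked after its values were seen, changed by 2.32 in EPAGRI 108 (adjusted p = 0.0355), and was not above background in either treatment in BR-IRGA 409. The difference between the responses did not pass the test (adjusted p = 0.181).

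Several further groups gave no call. None of 18 antioxidant enzymes, 7 metallothioneins with a symbol, 25 aquaporins, 5 phosphate starvation genes, 8 hemoglobin and fermentation genes or 5 abscisic acid and LEA genes was called, with or without the arrays numbered 1, and their medians lay between -0.14 and 0.24. OsAOX1b, the alternative oxidase that bypasses part of the respiratory chain, changed by 2.29 (adjusted p = 0.0496). The metallothionein-like LOC_Os12g38290, outside the symbol list, changed by 1.94. LOC_Os11g10520, annotated as alcohol dehydrogenase 2 and outside the fermentation list, changed by 1.65 (adjusted p = 0.0401). All of these were called higher and were picked after their values were seen. The labelled tissue was checked by markers. The root silicon transporters Lsi1 (OsNIP2;1) and Lsi2 read 13.36 to 13.56 and 12.33 to 12.49 in excess Fe and 13.37 to 13.78 and 12.63 to 12.98 in control. Of 8 root markers 0 were called, though the cortical cell protein LOC_Os04g46810 read 12.08, 9.68 and 8.65 in excess Fe against 12.56, 12.80 and 12.91 in control (-2.62, adjusted p = 0.0756). Of 5 leaf and chloroplast genes, 8 cyclins and kinases of dividing cells and 20 cytosolic ribosomal proteins 0 were called, with medians of -0.46, -0.26 and -0.03. RBCS-A was not above background in either treatment, whereas the chlorophyll-binding CAB2R read 9.25 to 9.90 in excess Fe and 9.27 to 10.75 in control.

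**Figure D5:**
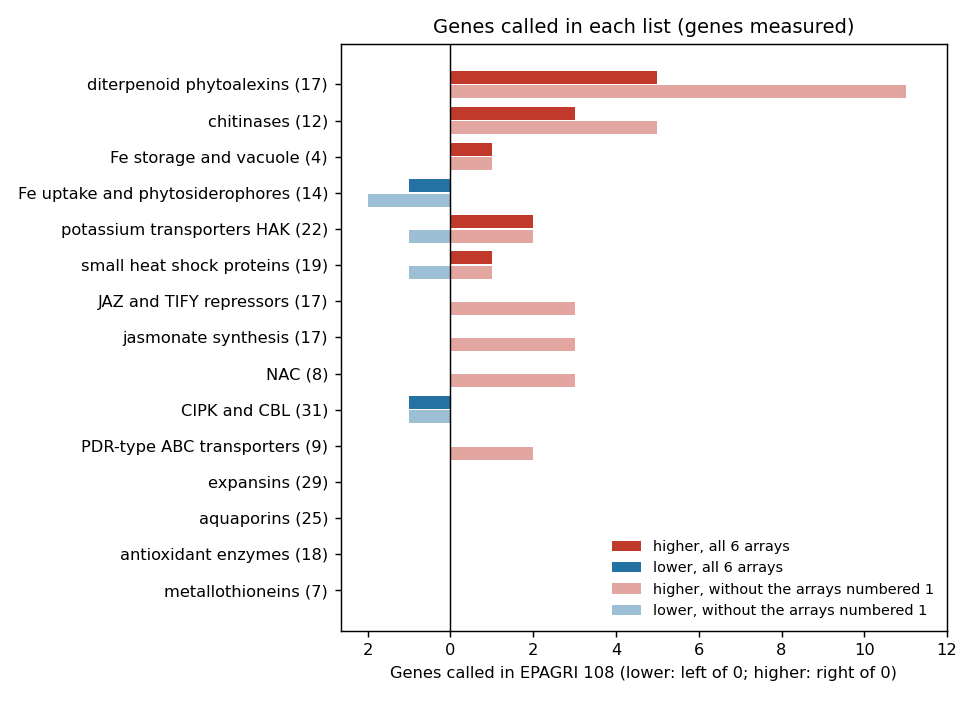
Number of genes called in EPAGRI 108 in 15 gene lists (genes measured in parentheses), higher to the right of 0 and lower to the left, with all 6 arrays (dark bars) and without the arrays numbered 1 (pale bars). Diterpenoid phytoalexins had 5 of 17 genes called with all arrays and 11 of 17 without those arrays, the most of the lists shown.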

How the data were processed

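RNA of rice roots was hybridised by the authors to 12 GeneChip Rice Genome Arrays. The authors summarised and normalised the probes by RMA in ArrayAssist and then added a fixed quantity to the linear values. The deposited values are log2 signals for 57381 probe sets. Array number limits the precision. The 123 AFFX control probe sets were removed, which left 57258 for testing.

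A linear model of all 12 arrays in 4 groups (limma 3.58.1, R 4.3.3, 8 residual degrees of freedom, no block) gave excess Fe minus control in each cultivar and the difference between them. Called means a Benjamini-Hochberg adjusted p under 0.05 over all probe sets and at least 3-fold. The fit was tested on simulated data. A group was above background where it exceeded the top level of AFFX probe sets for genes that rice lacks (4.51 to 5.01). Array medians were 5.16 to 5.22.

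Pairing by number was checked on deviations from group means. Same-numbered EPAGRI 108 arrays correlated at 0.454, 0.302 and 0.151, and those of BR-IRGA 409 at 0.49, 0.209 and 0.108. Every same-numbered pair was over 0.1, the bar set for pairing, though arrays 2 and 3 also crossed at 0.181 to 0.314. Deviations from a group mean cancel within the group. With array 1 apart, arrays 2 and 3 therefore correlate in any pairing. The check cannot show that numbers 2 and 3 pair the arrays, and only number 1 stands apart. Alternatives were each array left out, blocks, array weights, a trend, other scalings, a filter, 16 added to the linear values, EPAGRI 108 arrays alone and the methods' t-test.

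Genes were named from the platform annotation and the study's locus column (22436 of 57258 probe sets have 1 gene), and places from RefSeq gene order. Each listed gene was taken at its brightest probe set. The naming rule took the 14 largest rises, all falls, up to 4 members of each list, the Fe response genes and the 6 largest differences between cultivars each way. Further members of the diterpenoid, Fe, peroxidase and defence lists are named to account for them, and LOC_Os09g23300, the study's locus for OsVIT2, was counted with it. Members and lists were chosen with earlier results of these data known. The fold changes and p-values in the study's tables were not used.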

Additional observations from a re-analysis of the deposited data

Results flagged for a closer look

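The test of the difference between the cultivars' responses called 80 probe sets in all. Listed here are 18 of them, which stand for 16 named genes and 1 unnamed probe set. Values are the log2 response of EPAGRI 108 minus that of BR-IRGA 409. On the lower side were LOC_Os04g45510 (-5.39), LOC_Os04g45520 (-4.42), OsHsp18.1 (-4.36), OsVIT2 (-4.25 and -3.72 on its probe sets), LOC_Os01g41430 (-3.86) and a probe set without a gene name (-3.60). On the higher side were OsYSL15 (6.39), OsNAS1 (6.16), LOC_Os01g45914, the locus of OsIMA1 (6.01), OsNAS2 (5.95), OsNAAT1 (5.38), OsZIFL4 (4.21), OsYSL2 (3.90), OsNRAMP1 (3.88), LOC_Os12g36840 (3.30), LOC_Os12g18410, the locus of OsMIR (2.93), and OsbHLH063, also called OsIRO3 (1.85). Some of these rest on groups not above background and are then bounds. The differences are -3.44 or larger in size for LOC_Os04g45510 and -3.57 or larger in size for LOC_Os01g41430, whose BR-IRGA 409 control arrays were dim. With only the BR-IRGA 409 control arrays above background, OsIMA1 stands at 5.43, OsZIFL4 at 2.26 and OsMIR at 1.15 when dim values are set to the background level. All came from limma with a Benjamini-Hochberg adjusted p under 0.05 over all probe sets.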

How the results depend on the processing

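The counts of probe sets called in EPAGRI 108 depended on the setting. Without both EPAGRI 108 arrays numbered 1 they were 520 higher and 78 lower, and without all 4 arrays numbered 1, a setting chosen after seeing the data, 527 and 78. Array weights gave 417 and 46, a trend with robust moderation 76 and 7, a 2-fold limit 325 and 51, and no fold limit 441 and 127. With the replicate number as a block within each cultivar, with 16 added to the linear values, with the 6 EPAGRI 108 arrays alone or alone with the replicate block, and with the methods' t-test after adjustment, 0 were called in both directions, while 5911 had an unadjusted p under 0.05 in limma. The methods' t-test without adjustment called 202 higher and 18 lower. Leaving out 1 array gave 0 to 457 higher and 0 to 55 lower in EPAGRI 108, 546 to 647 higher and 126 to 165 lower in BR-IRGA 409, and 25 to 61 differences with the EPAGRI 108 response on the higher side and 32 to 64 on the lower side. The 31 on the higher side became 64 without both arrays numbered 1, 56 with array weights and 78 without all 4 arrays numbered 1, and the 49 on the lower side became 23 with 16 added. The replicate block within cultivar took the call from 59 named EPAGRI 108 results, brought the difference of OsNSHB2 past the threshold and changed no other named call. The cause was not tested beyond what the settings change. No named result changed direction under any setting run. In all, 161 probe sets called higher and 13 called lower kept their call in the fit of all arrays and in the 3 fits without array 1 of excess Fe, of control or of both. The depth of an array is fixed by its signal over background, and probe sets not above the control level carry only a bound.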

Other observations

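Both EPAGRI 108 arrays numbered 1 stood above the other 4 arrays for 15% of probe sets and below them for 20.3%, whatever the treatment. In BR-IRGA 409 both arrays numbered 1 stood above the other 4 for 12.5%. Among 17 JAZ and TIFY repressors of jasmonate signalling, 12 were of the first kind in EPAGRI 108 and 1 in BR-IRGA 409. OsTIFY11c read 11.44, 9.94 and 10.08 in excess Fe against 11.76, 7.41 and 8.75 in control EPAGRI 108, so that the highest value in each treatment was on array 1.

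Called genes were at times neighbours. Of 113 called genes with a place in the RefSeq gene order, 24 lay within 10 genes of another called gene, in 12 pairs. The share for genes drawn at random was not computed, so whether called genes cluster was not tested. Among them were OsCPS4 and CYP99A3, OsKSL7 and CYP71Z7, OsASR3 and OsASR4, and LOC_Os04g45510 and LOC_Os04g45520.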
